A study of Arabidopsis thaliana with 6 samples.

Results

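RNA was recovered with ECT2, an Arabidopsis YTH-domain protein that reads N6-methyladenosine (m6A) in RNA, and in a mock precipitation without tagged ECT2. Among the sites listed from both, a minority lay outside the untranslated and coding parts of messenger RNA. These are the nuclear sites described here: distinct sites on chromosomes 1 to 5 whose location label, taken from the first listed transcript, was neither 5′ UTR nor CDS nor 3′ UTR. The label left them in 2 kinds, introns and exons of transcripts without a coding sequence. Together the 4 site lists, 2 with ECT2 and 2 of the mock, held 4638 such sites at 1257 loci. There were 89905 distinct sites in all, 80661 of them nuclear sites with a UTR or CDS label. Within the lists, 0 of the sites carried another label in another listed transcript. How many sites were listed under several transcripts was not counted, so the label is not shown to be free of that choice. Some intron labels did not hold in another annotation, as described below.

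Formaldehyde crosslinking and immunoprecipitation (FA-CLIP) fixes proteins to RNA with formaldehyde, trims the RNA with RNase T1, which cuts after G, and sequences what is precipitated. The FA-CLIP group held RNA from seedlings of the line spelled ECT2:ETC2-Flag/ect2, a FLAG-tagged transgene in the ect2 T-DNA mutant SALK_002225 in the Col-0 background, precipitated on anti-FLAG M2 magnetic beads. The mock group held RNA that the same beads brought down from wild-type Col-0 seedlings, which carry no tag. The input group held RNA of the transgenic line that was not precipitated and was made into libraries with another kit. All seedlings were 14 days old, and each of the 3 groups had 2 libraries. The labels do not say whether the 2 libraries of a group came from separate plantings, so the spread between them may be technical. Each site has a whole number of conversion events, of which the FA-CLIP libraries listed 901178 and 830355 in all and the mock libraries 489805 and 653262. A list names only sites with 2 events or more, so a place that is not listed is not shown to lack RNA.

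Most RNA of a plant cell is not messenger RNA. Ribosomal and transfer RNAs carry out translation, small nuclear RNAs (snRNAs) form the spliceosome, and small nucleolar RNAs (snoRNAs) guide the chemical modification and cutting of ribosomal RNA. MicroRNAs (miRNAs) are cut from hairpin precursors and direct the silencing of matching messenger RNAs, and TAS transcripts are cut into trans-acting small RNAs. Such abundant RNAs are common in the RNA that beads hold without a target, which is what a mock precipitation measures.

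Several of the sites that carry the most events are short enough to show whole, in the letters of the RefSeq genome (TAIR10.1), 5′ to 3′ on the strand of the gene. The first is the site with the same ends in all 4 libraries at the tRNA-Glu gene AT1G09110, chr1:2939440-2939468 on the plus strand, with the anticodon in capitals. The second lies in AT1G15405, a non-coding RNA with no further name (chr1:5298073-5298096, minus strand), and the third in TAS1A (chr2:11721995-11722018, minus strand). Both were listed with the same ends in every library. The fourth is the strongest FA-CLIP replicate 1 site of the 18S ribosomal RNA gene AT3G41768, chr3:14198160-14198186 on the plus strand.
AT1G09110: atatctggctTTCacccaggagacccggg
AT1G15405: gttgtggcattgttccgggctgcc
TAS1A: taacatagcgtttgattggatctt
AT3G41768: aataccgggctctttcgagtctggtaa

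Sites outside UTR and CDS labels were few in FA-CLIP and a large part of the list in the mock, and they held nearly all events of the nuclear sites in the mock. They made up 3.67% (95% Wilson interval 3.49 to 3.86) and 3.36% (3.18 to 3.54) of the nuclear sites in the FA-CLIP libraries, against 44.25% and 39.1% in the mock libraries. Of the nuclear events they held 41.7% and 28.8% in FA-CLIP and 93.8% and 94.2% in the mock. Group means were 35.2% ± 9.09 in FA-CLIP and 94.0% ± 0.248 in the mock (SD, n = 2 each), and both FA-CLIP values lay below both mock values. The absolute numbers were closer to each other: 1488 and 1346 sites with 348611 and 221065 events in FA-CLIP, against 1062 and 1071 sites with 378042 and 499894 events in the mock. The smallest p that an exact permutation test allows between 2 libraries and 2 is 0.33, so these shares carry no test. Wilson intervals cover counting error only.

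**Figure D1:**
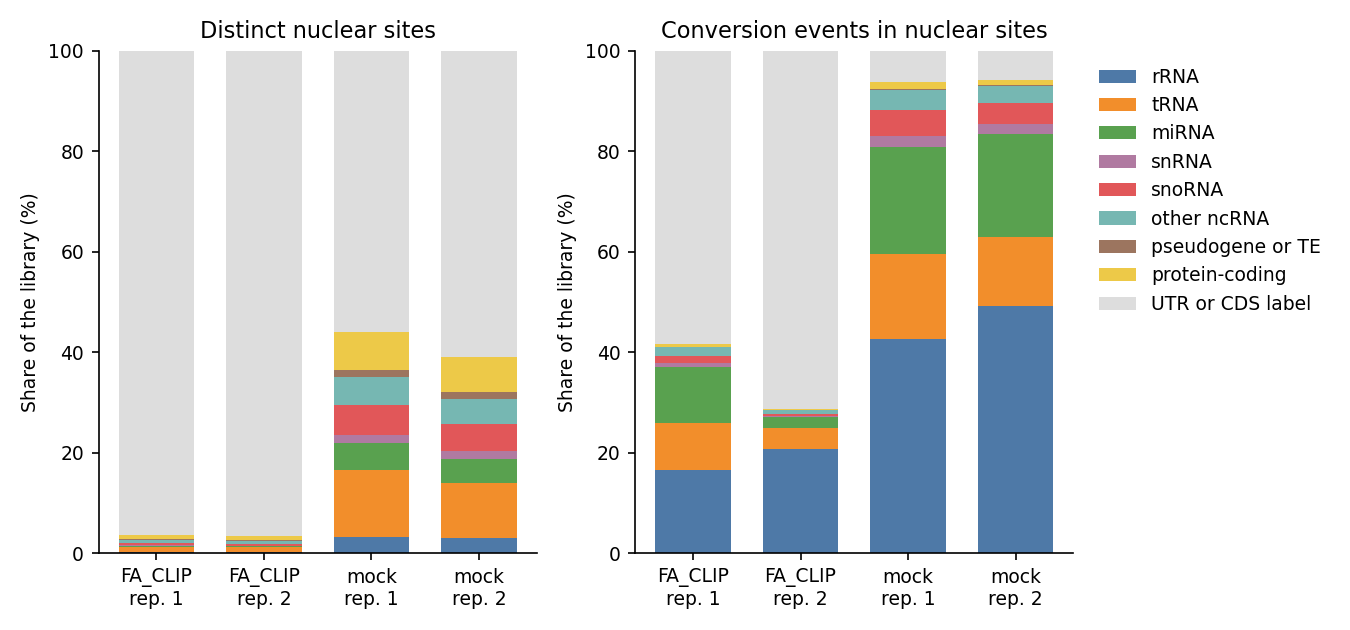
Share of the nuclear sites (left) and of the conversion events in nuclear sites (right) in each library, in percent, by the RNA class of the locus; grey is everything with a UTR or CDS label. The coloured part reaches 3.67% and 3.36% of the sites in FA-CLIP and 44.25% and 39.1% in the mock, and 41.7% and 28.8% against 93.8% and 94.2% of the events.

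Width and strength set these sites apart from those with a UTR or CDS label in the same libraries. They were narrower, with median widths of 21 and 22 nt in FA-CLIP and 21 and 22 nt in the mock, against 28 and 29 nt in FA-CLIP and 24 and 25 nt in the mock for UTR or CDS sites. They also held more events each, with medians of 9 and 7 in FA-CLIP and 15 and 18 in the mock, against 4 and 4 in FA-CLIP and 3 and 3 in the mock. A small number of places held much of the signal: the 10 strongest sites took 36.8% and 47.1% of the events of all these sites in FA-CLIP, and 43.6% and 53.1% in the mock.

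By class, the 4 nuclear ribosomal RNA loci held the most events in every library, and tRNA and miRNA loci followed. Ribosomal RNA held 139150 and 159183 events in FA-CLIP and 171819 and 260646 in the mock. Transfer RNA loci held 76961 and 32242 events in FA-CLIP and 68014 and 73432 in the mock, and miRNA loci 94429 and 16098 against 85614 and 108746. snoRNA genes held 10840 and 2376 events in FA-CLIP and 20318 and 21775 in the mock. Protein-coding genes, whose members are introns with few exceptions, gave 345 and 327 sites in FA-CLIP and 183 and 190 in the mock, but at most 1.49% of the events of these sites in any library.

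The 2 FA-CLIP libraries differed from each other in these RNAs far more than in messenger RNA. Replicate 2 held 0.634 times the events of replicate 1 over all sites outside UTR and CDS labels, and 1.12 times over UTR or CDS sites. The ratio was 0.170 for miRNA, 0.219 for snoRNA, 0.396 for snRNA and 0.419 for tRNA, while ribosomal RNA stood at 1.14. In the mock, replicate 2 over replicate 1 lay between 0.961 for protein-coding genes and 1.52 for ribosomal RNA in the 8 classes. The number of sites moved much less than the events: for miRNA 133 and 103 sites in the FA-CLIP libraries. A mean over the FA-CLIP pair is therefore a mean of unlike libraries for every class of small RNA below, and both values are given.

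**Figure D2:**
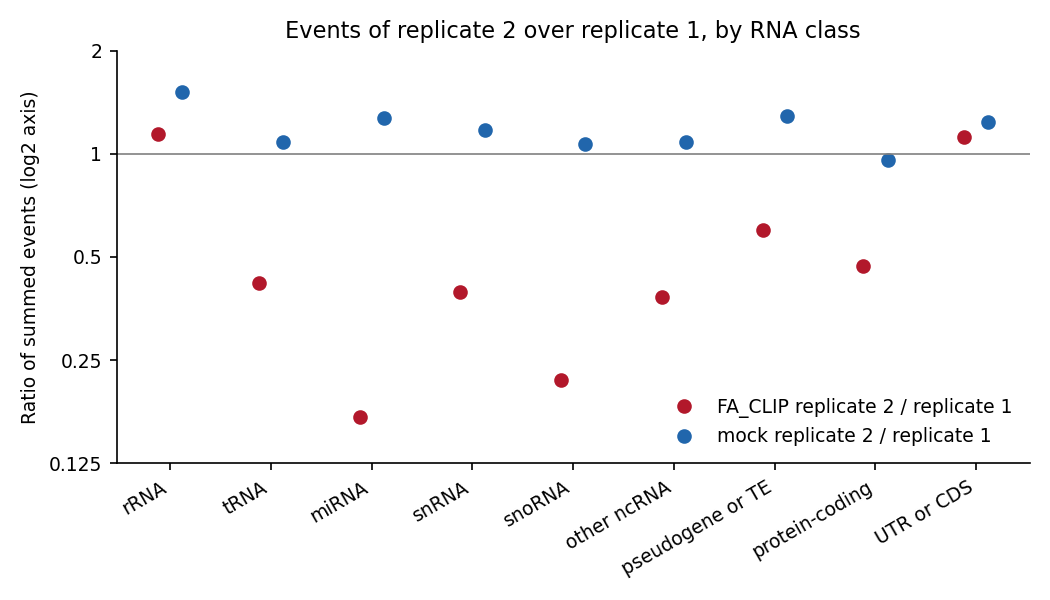
Summed conversion events of replicate 2 divided by those of replicate 1, on a log2 axis, for each RNA class and for UTR or CDS sites; red points are the FA-CLIP pair and blue points the mock pair. FA-CLIP points fall to 0.170 for miRNA and 0.219 for snoRNA and stand at 1.14 for ribosomal RNA and 1.12 for UTR or CDS sites, while the mock points stay between 0.961 and 1.52.

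Places recovered in one library were mostly recovered in the other library of the group. Of the FA-CLIP sites outside UTR and CDS labels, 61.8% (59.3 to 64.3) of replicate 1 and 68.9% (66.3 to 71.3) of replicate 2 overlapped a site of the other list by at least 1 nt on the same strand. In the mock it was 78.7% (76.2 to 81.1) and 77.7%. Sites with a UTR or CDS label overlapped at 64.8% and 66.7% in FA-CLIP, and at 49.0% and 40.9% in the mock. In the mock lists the sites outside the label classes of messenger RNA thus recurred more often than the others. The intervals do not overlap, but they count sites as independent. These sites also held more events each, with mock medians of 15 and 18 against 3 and 3. The part of that in their recurrence was not tested. Exact ends were rare: 15 sites had the same start and end in all 4 libraries, of which 7 were in tRNA genes.

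Reproducible FA-CLIP sites, formed by joining the overlapping sites of both FA-CLIP libraries, were then set against the mock lists to ask which of them the beads hold without the tag. Of 855 reproducible sites outside UTR and CDS labels, 666 overlapped a mock site, which is 77.9% (75 to 80.5). For reproducible sites with a UTR or CDS label it was 1549 of 20428, or 7.58%. All 64 reproducible ribosomal RNA sites and all 34 snRNA sites overlapped a mock site, as did 96 of 99 snoRNA sites, 79 of 81 miRNA sites and 234 of 263 tRNA sites. The share was lower for other non-coding RNA, with 87 of 145, for protein-coding genes, with 64 of 138 (46.4%), and for pseudogenes and transposable element genes, with 6 of 28 (21.4%). FA-CLIP places without a mock site thus came mainly from these last 3 classes and from tRNA, which held 29.

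To compare amounts, the events of each gene were summed over its sites outside UTR and CDS labels, and separately over its UTR or CDS sites. Organelle genes were summed as well. The 901 sums with a site in all 4 libraries were fitted together with edgeR, scaled by TMM. P-values were adjusted by Benjamini-Hochberg over all 901, of which 137 were organelle sums, 12 of these called lower and 0 higher. Of the 395 sums outside UTR and CDS labels, 83 were lower in FA-CLIP and 1 was higher at an adjusted p of 0.05, where 12.2% of all sums were called lower and 28.7% higher. Their median log2 fold change, FA-CLIP over mock, was −1.06, against −0.07 over all 901 sums and 3.42 over the 369 UTR or CDS sums, of which 258 were higher and 15 lower. By class, 37 of 59 snoRNA genes were lower (median log2 fold change −2.24), 6 of 12 snRNA genes (−1.63), 11 of 32 protein-coding genes (−1.68) and 9 of 24 other non-coding RNAs (−1.21). Among miRNA loci 4 of 66 were lower (−1.04), and among tRNA genes 12 were lower and 1 higher of 191 (−0.36). These values are relative to all listed events of a library. Scaled to the sites outside UTR and CDS labels alone, an alternative chosen after seeing the data, 19 sums were lower and 0 higher, with a median of 0.03; 12 of the 19 were snoRNA genes. In that scaling the snoRNA median stayed below 0, at −1.32, and the tRNA median was 0.85, opposite in sign to the first. At an unadjusted p under 0.05 that scaling held 87 sums over both directions.

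**Figure D3:**
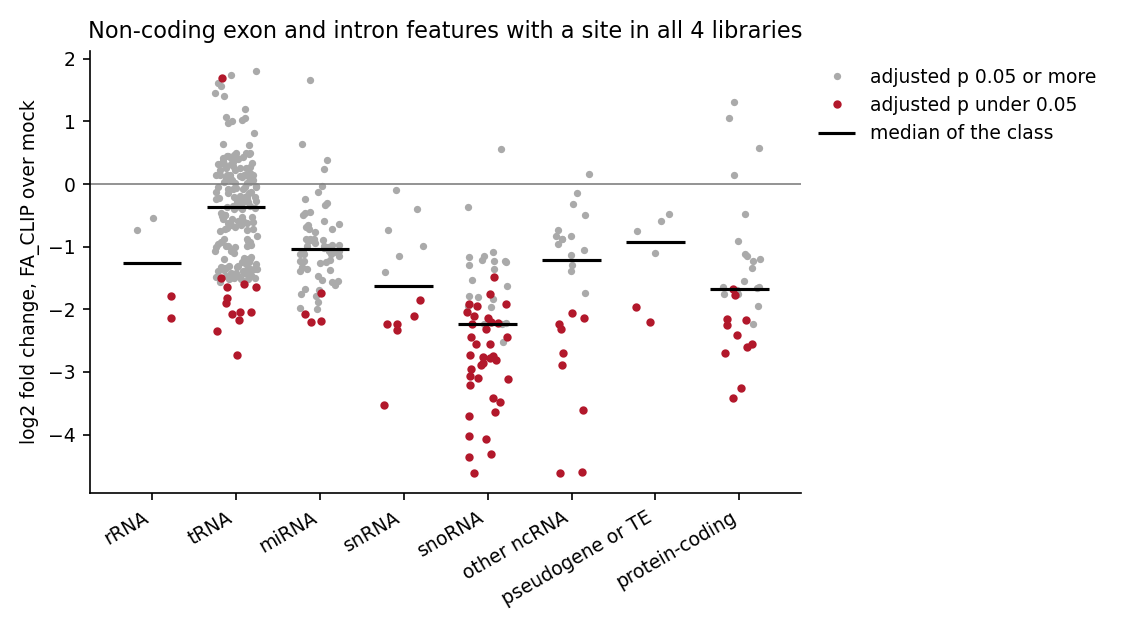
log2 fold change, FA-CLIP over mock, of the 395 gene sums outside UTR and CDS labels with a site in all 4 libraries, by RNA class; red points passed an adjusted p of 0.05 in edgeR, grey points did not, and the black line is the class median. The snoRNA median is −2.24 and the tRNA median −0.36 in the scaling to all events, and −1.32 and 0.85 when scaled to these sites alone.

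Because a feature had to be listed in all 4 libraries, RNAs seen in one group only are not among the 395. With sums listed in at least 2 libraries and a missing site taken as 0, 128 were higher and 243 lower of 771, where 85.6% of all 10234 sums of that fit were called higher and 3.10% lower. Leaving out FA-CLIP replicate 1 gave 13 higher and 213 lower of the 395, where 33.5% of all 901 sums were called higher and 29.7% lower. Leaving out FA-CLIP replicate 2 gave 7 higher and 84 lower, where 32.7% and 12.4% of all sums were called. Class counts depended on single libraries. Each fit without a library leaves 1 library in a group, so its counts are a check on stability only. The median log2 fold change of all 901 sums was 0.05 without mock replicate 1 and −0.05 without mock replicate 2. Of the miRNA loci, 4 were lower in the full fit, 43 without FA-CLIP replicate 1, 1 without mock replicate 1 and 0 without mock replicate 2. Lower tRNA genes numbered 12 in the full fit, 56 without FA-CLIP replicate 1, 4 without mock replicate 1 and 2 without mock replicate 2.

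snoRNA genes had the highest share of calls among the 8 classes, and every one of the 37 called was lower in FA-CLIP. The largest fall among the snoRNA genes was at AT2G43139, which held 16 and 5 events in FA-CLIP and 151 and 141 in the mock, a log2 fold change of −4.62 ± 0.63 (SE) with an edgeR adjusted p of 0.00077. Its neighbour AT2G43138 had 18 and 7 events in FA-CLIP and 143 and 149 in the mock, and U60.2F 23 and 7 against 166 and 170. The groups did not overlap at any of these 3 genes, which were named for their large folds in the same data. Scaled to all listed events, both FA-CLIP values lay below both mock values for 51 of 59 snoRNA genes. The same held for 282 of all 901 sums. AT3G27865, the snoRNA gene with 313 and 54 events in FA-CLIP and 1698 and 1604 in the mock, fell by 4.07 on the log2 scale (adjusted p 0.00456, edgeR). U3, the snoRNA that takes part in cutting the precursor of ribosomal RNA, had its strongest genes at U3D and U3B. U3D held 829 and 109 events in FA-CLIP against 1998 and 2708 in the mock (log2 fold change −3.21 ± 0.84, adjusted p 0.0172, edgeR), and U3B 837 and 101 against 1714 and 2573 (−3.07 ± 0.86, adjusted p 0.0224, edgeR).

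Many snoRNA sites lay on the box D letters. Box C/D snoRNAs carry a box C near the 5′ end and a box D near the 3′ end that hold the proteins of the particle. The letters CTGA of box D stood inside 40.3% (32.6 to 48.4) and 45.8% of the snoRNA sites in FA-CLIP, and 44.1% and 49.0% in the mock. On both strands of the 5 nuclear chromosomes 6.30% of all 22-nt windows hold these letters. The letters TGATGA of box C were inside 6.25% and 6.78% of the snoRNA sites in FA-CLIP and 6.90% and 4.70% in the mock, against 1.03% of 22-nt windows, and within 25 nt on either side in 43.1% and 37.3%, and 39.3% and 43.0%, against 3.90% of 72-nt windows. For the letters inside the sites the intervals of all 4 libraries overlapped. The strongest mock replicate 1 sites of 5 RNAs that fell in FA-CLIP, chosen because they hold these letters, show them in capitals: AT2G43139 (chr2:17923471-17923481, plus strand), AT2G43138 (chr2:17923310-17923321, plus strand), U3B (chr5:21888499-21888515, plus strand), U3D (chr5:21945381-21945401, minus strand) and AT3G61198, annotated only as a non-coding RNA (chr3:22656395-22656410, minus strand).
AT2G43139: tCTGAtccctt
AT2G43138: tCTGAtcccttt
U3B: gtCTGAcaggtcccttt
U3D: gtCTGAcaggttcttttattt
AT3G61198: gtCTGAcaggttccat
The sites of U3B, U3D and AT3G61198 begin with the same 11 letters, gtCTGAcaggt. The strongest mock replicate 1 sites of U60.2F (chr4:13075578-13075600, plus strand) and AT3G27865 (chr3:10328518-10328567, plus strand) lay elsewhere in their genes, and that of U60.2F holds no CTGA.
U60.2F: ttacttggattccccttcagatc

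snRNA sites were led by U2, the RNA that pairs with the branch point of introns. The 6 U2 genes held 4869 and 2042 events in FA-CLIP and 7999 and 8423 in the mock. U2.7 had 1160 and 448 events in FA-CLIP against 2129 and 2371 in the mock (log2 fold change −2.32 ± 0.56, adjusted p 0.0118, edgeR). U2.4 had 1312 and 511 against 2331 and 2454 (log2 fold change −2.23), and U2.3 had 1073 and 551 against 2069 and 1855 (−2.11), each with an edgeR adjusted p of 0.0139. U4, which keeps U6 paired until the spliceosome is activated, held 103 and 49 events in FA-CLIP and 310 and 723 in the mock and was also among the genes that fell. U1, which pairs with the 5′ splice site, passed the test as well, with a log2 fold change of −1.86 and an edgeR adjusted p of 0.0375, although its unscaled events overlapped between the groups, at 818 and 281 in FA-CLIP and 810 and 1462 in the mock. U12, of the spliceosome for minor introns, held 695 and 182 events in FA-CLIP and 200 and 328 in the mock and was not called. Of the 6 snRNA calls, 1 was left without mock replicate 1, 2 without mock replicate 2 and 1 in the scaling to these sites alone, and the calls of U2.7, U2.4 and U2.3 were lost in each of these 3.

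Nearly all miRNA events lay in sites that overlapped a mature miRNA by at least 1 nt. Some of these sites ran past its ends, so mature miRNA and precursor are not told apart. The MIR163 site at chr1:24884373-24884396, listed with the same ends in all 4 libraries, goes beyond miR163, which ends at 24884382. Of the sites at miRNA loci, 94.0% and 92.2% in FA-CLIP and 92.0% and 90.6% in the mock overlapped an annotated mature miRNA, and these held between 99.7% and 99.9% of the miRNA events in every library. The median site was 15 and 14 nt wide in FA-CLIP and 15 nt in both mock libraries, shorter than the miRNAs. The MIR398 family, whose targets include copper superoxide dismutases, held 66.0% and 51.8% of the miRNA events in FA-CLIP and 76.7% and 79.5% in the mock. MIR159, which targets MYB transcription factors, held 11.5% and 8.18% in FA-CLIP and 8.08% and 5.91% in the mock. MIR396, which targets growth-regulating factors, held 6.27% and 13.1% in FA-CLIP and 2.72% and 2.88% in the mock. Its share of the miRNA events was thus higher in both FA-CLIP libraries. Its unscaled events overlapped between the groups, at 5924 and 2108 in FA-CLIP and 2325 and 3130 in the mock. The mature sequences of the leading members are given with the seed, bases 2 to 8, in capitals. They come from the RefSeq genome at chr5:4691107-4691127 (miR398b-3p, plus strand; miR398c-3p has the same letters), chr2:1041012-1041032 (miR398a-3p, plus strand), chr1:6220813-6220833 (miR159b-3p, plus strand), chr5:13611808-13611828 (miR396b-5p, plus strand) and chr2:19319933-19319953 (miR408-3p, plus strand).
miR398b-3p: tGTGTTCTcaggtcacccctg
miR398a-3p: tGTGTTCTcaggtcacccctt
miR159b-3p: tTTGGATTgaagggagctctt
miR396b-5p: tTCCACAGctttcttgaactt
miR408-3p: aTGCACTGcctcttccctggc

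The 3 miR398 members share 1 seed and carried unequal events. MIR398b had 29613 and 3769 events in FA-CLIP and 30356 and 40571 in the mock, and MIR398c 29548 and 3733 against 30967 and 40347. These 2 loci encode one mature sequence, so reads of one cannot be told from reads of the other and the pair is not 2 independent measurements. In unscaled events FA-CLIP replicate 1 lay close to mock replicate 1. Per 1000000 listed events MIR398b had 32860 and 4539 in FA-CLIP and 61976 and 62105 in the mock, so both FA-CLIP libraries lay below both mock libraries. MIR398a, whose mature miRNA differs at its 3′ end, had 3121 and 837 events in FA-CLIP and 4369 and 5576 in the mock (log2 fold change −2.18 ± 0.62, adjusted p 0.0246, edgeR), and its groups did not overlap. That call was lost without either mock library, with no TMM and in the scaling to these sites alone. For MIR398b the edgeR adjusted p was 0.0867. Per 1000000 listed events, 33 of the 66 miRNA loci tested had both FA-CLIP libraries below both mock libraries. The same held for 212 of the 395 sums outside UTR and CDS labels and for 282 of all 901 sums.

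Within MIR398b the libraries split by replicate number. In both replicate 1 libraries one site covered the first bases of the mature miRNA and the bases before it, and a second covered its last bases. In both replicate 2 libraries the first site was not listed. The first site held 18669 events in FA-CLIP replicate 1 and 15237 in mock replicate 1, and the second held 10935 and 3765 events in FA-CLIP against 15111 and 40565 in the mock. The sequences below show FA-CLIP replicate 1 (chr5:4691101-4691113 and chr5:4691116-4691139, plus strand) and the second site as listed in the other 3 libraries (chr5:4691116-4691129), with the bases of the mature miRNA in capitals. MIR398c showed the same arrangement, with a first site of 18796 events in FA-CLIP replicate 1 and 15546 in mock replicate 1. Across all 901 sums, deviations from the group means of libraries with the same number had a correlation of 0.050.
First site: ttttcaTGTGTTC
Second site, FA-CLIP replicate 1: AGGTCACCCCTGctgagctctttc
Second site, other libraries: AGGTCACCCCTGct

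Some miRNAs were uneven between the mock libraries. MIR158a held 1822 and 316 events in FA-CLIP, and 3 and 404 in the mock. Mock replicate 1 listed no site on its mature miRNA, and the groups overlapped because of mock replicate 2. MIR863 held 447 events in mock replicate 2 and was not listed in the other 3 libraries. Both loci were singled out after their values had been seen.

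Transfer RNA sites were concentrated on a few isotypes and on the middle of the molecule. tRNA-Glu genes held 61.3% and 53.2% of the tRNA events in FA-CLIP and 64.4% and 60.1% in the mock, although they are 24 of the annotated tRNA genes. tRNA-Gly held 15.2% and 12.5% against 15.1% and 14.2%, and tRNA-Gln 10.1% and 11.4% against 11.1% and 12.5%. When a gene was divided into 3 equal parts, sites centred in the central part, where the anticodon lies, held 83.5% and 83.9% of the tRNA events in FA-CLIP and 79.5% and 84.0% in the mock. By number, 39.9% and 43.5% of the sites in FA-CLIP and 49.5% and 48.2% in the mock were centred there, so the strong sites and not the many weak ones set the share by events.

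**Figure D4:**
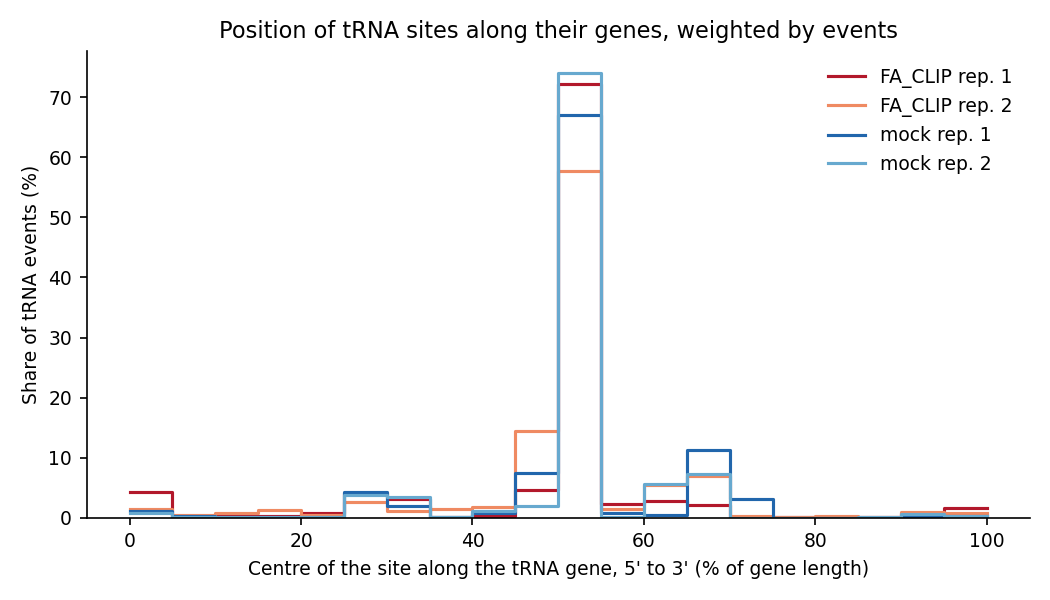
Share of tRNA events, in percent, by the position of the site centre along the tRNA gene, in bins of equal width from the 5′ to the 3′ end; each line is 1 library. All 4 lines peak just past the middle of the gene, and the central of 3 equal parts holds 83.5% and 83.9% of the events in FA-CLIP and 79.5% and 84.0% in the mock.

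The strongest tRNA site, shown at the start with its TTC anticodon, recurred letter for letter at 8 loci. At AT1G09110 it held 12178 and 3187 events in FA-CLIP and 11875 and 12132 in the mock. AT1G20170 had 6359 and 1814 against 6268 and 6150, and AT4G37175 had 6335 and 1713 against 6160 and 6374. In unscaled events FA-CLIP replicate 1 lay close to the mock values at all 3 genes. Per 1000000 listed events AT1G09110 had 13513 and 3838 in FA-CLIP and 24244 and 18571 in the mock. Both FA-CLIP libraries thus lay below both mock libraries at AT1G09110. That held for 67 of the 191 tRNA genes tested, 212 of the 395 sums outside UTR and CDS labels and 282 of all 901 sums. None of the 3 tRNA-Glu genes named here passed the test, with edgeR adjusted p-values of 0.0867, 0.0867 and 0.0852. Identical copies share reads, so the events of a single copy are uncertain. Over all sites outside UTR and CDS labels, 22.0% and 14.0% of the events in FA-CLIP and 40.6% and 37.4% in the mock lay in sites whose letters occurred at more than 1 listed site.

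The 12 tRNA genes called lower are a smaller share of the 191 tested than the 12.2% of all sums. They were 5 of 24 tRNA-Asp genes, 3 of 20 tRNA-Gly genes, 2 of 14 tRNA-Gln genes and 1 each of tRNA-Pro and tRNA-Thr. None was lower in the scaling to these sites alone. None of the 23 tRNA-Glu genes was called. The only gene sum outside UTR and CDS labels that was higher in FA-CLIP was the tRNA-Ser gene AT3G02715, with 63 and 30 events in FA-CLIP and 9 and 7 in the mock (log2 fold change 1.70 ± 0.58, adjusted p 0.0484, edgeR). Its groups did not overlap, but it was named for its fold in the same data. Scaled to all listed events, both FA-CLIP values lay above both mock values for 30 of the 191 tRNA genes. The same held for 354 of all 901 sums. The call of AT3G02715 was lost with DESeq2, without either mock library and in the scaling to these sites alone, where its log2 fold change was 2.80.

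Ribosomal RNA sites came from 2 pairs of genes. The 18S genes AT3G41768 and AT2G01010 held 54032 and 54429 events in FA-CLIP against 53380 and 52306 in the mock, and 37765 and 46100 against 29133 and 45575. Neither passed the test. AT3G41979, a 5.8S gene, held 16252 and 29492 events in FA-CLIP and 45164 and 81252 in the mock and fell by 2.13 on the log2 scale (adjusted p 0.0221, edgeR). AT2G01020, the gene beside AT2G01010, held 31101 and 29162 events in FA-CLIP and 44142 and 81513 in the mock and fell by 1.78 (adjusted p 0.0232, edgeR). Both calls were lost without mock replicate 2, with sites in at least 2 libraries and in the scaling to these sites alone, and that of AT2G01020 also without mock replicate 1. Each of the 4 genes held more than 10% of the events of these sites in at least 1 library, and copies of one ribosomal RNA share reads.

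Among other non-coding RNAs 3 patterns are described, which do not cover all 92 loci: 23 were listed in 1 FA-CLIP library and no mock library. In the first, 9 of the 24 tested were lower in FA-CLIP. AT3G61198 held 341 and 57 events in FA-CLIP and 2385 and 2916 in the mock, a log2 fold change of −4.62 ± 0.82 (adjusted p 0.00262, edgeR), and AT1G20691 held 57 and 21 against 532 and 526 (−4.60 ± 0.64, adjusted p 0.00083, edgeR). AT1G16635 held 1039 and 137 against 2106 and 2612 (−2.90, adjusted p 0.0244, edgeR). The groups did not overlap at any of the 3, which were named for their folds or events in the same data. Scaled to all listed events, both FA-CLIP values lay below both mock values for 17 of the 24 tested. The same held for 282 of all 901 sums. The strongest mock replicate 1 site of AT1G20691 (chr1:7176153-7176176, minus strand) also held the CTGA letters.
AT1G20691: tctCTGAacttcacaggtaagttc

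The second pattern was a site in every library with no call. AT1G15405 held 5135 and 1869 events in FA-CLIP and 3561 and 3564 in the mock, of which its 24-nt site shown at the start had 4789 and 1627 against 3314 and 3132. The TAS precursors, from which trans-acting small RNAs are made after a miRNA directs the initial cut, were also listed in every library. TAS1A held 1485 and 671 events in FA-CLIP and 820 and 881 in the mock, and TAS2 1155 and 682 against 569 and 586. TAS1C had 961 and 350 against 626 and 580, and TAS3, which makes the small RNAs that target auxin response factors, 506 and 291 against 361 and 456. TAS1B had 202 and 144 against 167 and 188, and TAS3b 36 and 32 against 28 and 52. Log2 fold changes of the 6 TAS loci lay between −0.96 and −0.14, and none was called, with adjusted p from 0.163 to 0.837 in edgeR. In raw events TAS2 was the only one of these with both FA-CLIP values above both mock values, before scaling to library totals. A search by name among the other non-coding RNAs of the annotation used here found no TAS4, IPS1, AT4, 7SL or RNase MRP RNA.

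The third pattern was listing in FA-CLIP alone. Of 92 other non-coding RNA loci, 32 had a site in both FA-CLIP libraries and in neither mock library, 1 had the reverse, and 24 were listed in all 4. The strongest of the 32, named after their values were seen, was AT3G12965 with 141 and 247 events in 6 and 4 sites, at an input level of 50.8 and 45.7 FPKM (FPKM, fragments scaled to transcript length and library size, is a unit inferred from the layout of the input tables), followed by AT1G79075 with 96 and 99 events in 5 and 3 sites at 67.3 and 69.9 FPKM. The sites of AT3G12965 lay within chr3:4137007-4137197 for the 3 strongest of each library. A site of AT3G12965 in FA-CLIP replicate 1 (chr3:4137071-4137090, minus strand) and one of AT1G79075 in FA-CLIP replicate 2 (chr1:29746832-29746855, plus strand) read as follows.
AT3G12965: ttgtgttttttgcattttag
AT1G79075: tttcagactttacttcatcgtcta

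Over all classes, 146 loci were listed in both FA-CLIP libraries and no mock library, against 25 in both mock libraries and no FA-CLIP library. No snoRNA, snRNA or ribosomal RNA gene was among the 146, which held 68 protein-coding genes, 32 other non-coding RNAs, 21 tRNA genes, 21 pseudogenes or transposable element genes, 3 miRNA loci and 1 locus without a match in the annotation. These loci were weak: the highest value of a locus had a median of 6 events, against 108 for the 395 loci listed in all 4. The FA-CLIP libraries also listed more events in total, as given above, and the part of that in these numbers was not tested.

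Intron sites of protein-coding genes were of several kinds. Of 344 and 326 such sites in FA-CLIP and 183 and 190 in the mock, 86 and 73 in FA-CLIP and 103 and 103 in the mock lay on a small RNA gene of the same strand, a snoRNA gene in 42 of 52 host pairs and a miRNA gene in the other 10. These made up 25% (20.7 to 29.8) and 22.4% (18.2 to 27.2) of the intron sites in FA-CLIP, against 56.3% (49.0 to 63.3) and 54.2% (47.1 to 61.1) in the mock. They held 58.4% and 27.7% of the intron events in FA-CLIP and 81.9% and 83.5% in the mock. A further 52 and 58 sites in FA-CLIP and 10 and 13 in the mock lay in an exon of a RefSeq mRNA, so that the label intron does not hold in that annotation. The remaining intron sites numbered 206 and 195 in FA-CLIP and 70 and 74 in the mock, with medians of 3 and 3 events in FA-CLIP and 4 and 3 in the mock.

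**Figure D5:**
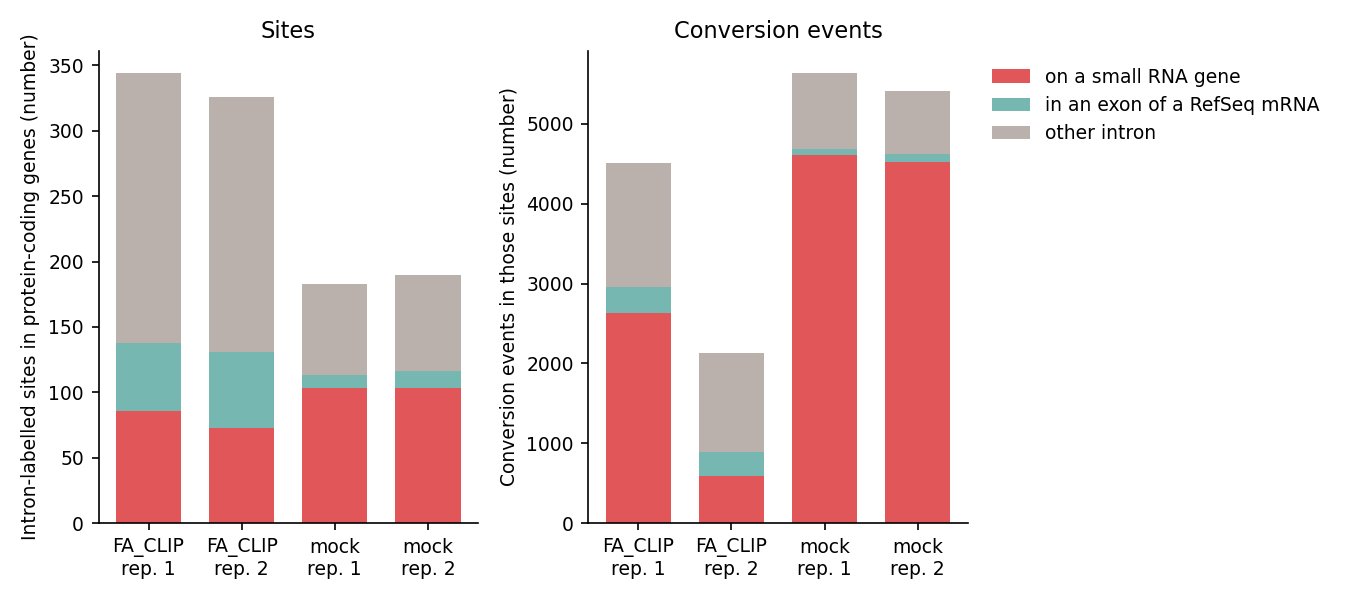
Number of intron-labelled sites in protein-coding genes (left) and their conversion events (right) in each library, divided into sites on a small RNA gene, sites in an exon of a RefSeq mRNA and other intron sites. Small RNA genes hold 86 and 73 of 344 and 326 sites in FA-CLIP and 103 and 103 of 183 and 190 in the mock, and 27.7% to 83.5% of the events.

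The host genes with the most intron events carry snoRNA genes in their introns. AT4G17390, which encodes a ribosomal protein of the L15e family, held 560 and 69 events in FA-CLIP and 1001 and 1040 in the mock, every one on the snoRNA gene AT4G06705 (log2 fold change −2.61 ± 0.84, adjusted p 0.0406, edgeR). AT4G29410, a ribosomal L28e protein gene, held 353 and 78 events in FA-CLIP and 1399 and 1066 in the mock over 4 snoRNA genes (−3.42 ± 0.74, adjusted p 0.00714, edgeR). AT1G29465 held 545 and 152 against 622 and 583 over 5 snoRNA genes and was not called (adjusted p 0.0683). Of the 11 protein-coding genes called lower, 10 had more than 50% of their intron events on a snoRNA gene, as did 10 of the 21 not called. The one exception among the 11 was AT3G44570, with 38 events over the 4 libraries.

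Introns listed in both FA-CLIP libraries and in neither mock library were led by 5 genes. AT3G48030, which encodes a RING-finger protein, had 48 and 40 events, and AT2G15580, another RING-type gene, 26 and 37; their strongest places lie in exons of a RefSeq mRNA. AT1G56500, which encodes a haloacid dehalogenase-like hydrolase, had 29 and 46 events, GRF8, a 14-3-3 protein gene, 22 and 14, and AT4G25550, the 25-kDa subunit of the cleavage and polyadenylation specificity factor, 15 and 16. The strongest places of these 3 lie in introns of RefSeq as well. Their input levels were 11.4 and 11.5 FPKM for AT1G56500, 62.0 and 52.9 for GRF8 and 19.4 and 20.6 for AT4G25550. The intron site of GRF8 was short.
GRF8: atatctcataca

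Protein-coding genes with an intron site in both FA-CLIP libraries had median input levels of 7.73 and 7.46 FPKM over 102 genes. Genes with one in both mock libraries had medians of 5.87 and 5.94 FPKM over 61 genes, and all 26690 nuclear protein-coding genes of 2.62 and 2.65 FPKM. The input libraries were made with another kit, and the part of RNA level in which introns are listed was not tested.

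Pseudogenes and transposable element genes added 88 and 67 sites in FA-CLIP and 33 and 37 in the mock, with 924 and 555 events against 535 and 690. AT3G20365 held 421 and 162 events in FA-CLIP and 265 and 449 in the mock and was not called. AT3G30582 held 37 and 26 against 83 and 56 and fell by 1.96 on the log2 scale (adjusted p 0.0207, edgeR). Its call was lost in the scaling to these sites alone, where 0 of the 6 tested sums of this class were called. AT4G01455 held 13 and 11 against 9 and 15. Its strongest FA-CLIP replicate 2 site was tctggctttcacccaggag, letters that also stand inside the tRNA-Glu site above. Reads of such letters cannot be told apart by copy, so its events are uncertain.

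The base sequence of the sites outside UTR and CDS labels differed from that of messenger RNA sites in the same libraries. U made up 34.2% and 34.7% of their bases in FA-CLIP and 31.5% and 31.2% in the mock, against 37.5% and 38.3% in FA-CLIP and 35.0% and 34.7% in the mock for UTR or CDS sites. Intron sites off small RNA genes were richer in U, at 43.7% and 45.4% in FA-CLIP and 40.3% and 37.5% in the mock. G was the last base of 28.8% and 32.7% of the sites in FA-CLIP and 28.1% and 32.5% in the mock. In tRNA sites it was the last base of 39.2% and 53.6% in FA-CLIP and 44.2% and 48.4% in the mock.

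Of 5 short motifs searched, URUAY stood below its share of genome windows in all 4 libraries, and the other 4 had values on either side of theirs. URUAY, where R is A or G and Y is C or U, stood in 6.18% (5.07 to 7.52) and 8.25% (6.89 to 9.84) of the sites in FA-CLIP and in 5.27% and 5.70% in the mock, against 9.64% of all 22-nt windows on both strands of the nuclear genome. UTR or CDS sites, which are wider, held it at 15.1% and 17.8% in FA-CLIP and 8.07% and 8.69% in the mock, against 12.5% of all 28-nt windows. UGUAA, which differs from URUAY in its last base, stood in 2.89% and 2.75% of the sites outside UTR and CDS labels in FA-CLIP and 2.17% and 1.40% in the mock, against 2.74% of 22-nt windows. DRACH, the consensus around m6A (D is A, G or U; H is A, C or U), stood in 29.4% and 30.5% in FA-CLIP and 30.7% and 34.7% in the mock, against 31.9% of 22-nt windows. GGAU stood in 7.12% and 5.79% against 7.53% and 7.10%, where 6.09% of windows hold it, and UUUUU in 6.12% and 7.28% against 4.05% and 4.2%, where 6.55% of windows hold it. The sites vary in width around 22 nt, so the windows are a guide and not a matched control. By class, URUAY stood in 0.251% and 0.268% of the tRNA sites in FA-CLIP, which is 1 site in each library, and in 0 of 321 and 0 of 304 in the mock, and in none of the snRNA sites of any library. It stood in 11.2% (7.90 to 15.8) and 15.2% (11.1 to 20.6) of the other non-coding RNA sites in FA-CLIP, against 9.02% (5.24 to 15.1) and 8.82% (5.12 to 14.8) in the mock, where the intervals overlapped. In intron sites off small RNA genes it stood in 8.25% and 9.74% in FA-CLIP and 11.4% and 13.5% in the mock, again with overlapping intervals.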

How the data were processed

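Libraries were made by the submitters from 2 FA-CLIP, 2 mock and 2 input samples. The submitters' processing notes name cutadapt, Bowtie and the TAIR10 build, without versions, and no site caller. Each deposited site carries a count of its conversion events, as the authors' column heading states, unscaled and at least 2. The deposited input tables hold 1 value per gene, taken as FPKM from header layout and values; their depth is unknown. Sites repeated under several transcripts entered once, with the label of the first. Loci were classed by RefSeq TAIR10.1 annotation, whose nuclear coordinates fit: at least 99.2% of the sites with a matched locus overlapped it, and 3 locus IDs had no match. Overlaps (bedtools 2.31.1) needed the same strand and 1 nt.

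Gene sums with a site in all 4 libraries were fitted with edgeR 4.0.16 (quasi-likelihood, TMM, R 4.3.3) and called at a Benjamini-Hochberg adjusted p under 0.05; the script was tested on simulated data. DESeq2 1.42.0 was an alternative. Replicate numbers were not used as a block, since same-numbered libraries did not deviate together (correlation 0.050). Other calculations used Python 3.11.15. The members and lists were chosen with earlier results of these data known. Named loci are the 3 with most events per class, the 5 protein-coding genes listed in FA-CLIP only with most events, the 5 largest called folds each way, named TAS and similar RNAs, and loci with over 10% of the events of these sites in a library. snRNA and miRNA families, FA-CLIP-only non-coding RNAs, box C and D letters, positions along tRNA and miRNA, and the division of introns were added after seeing the data.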

Additional observations from a re-analysis of the deposited data

How the results depend on the processing

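Taking only sites above the median events of their library gave a site share of 4.89% in FA-CLIP and 65.8% in the mock and an event share of 94.6% in the mock; thinning to the smallest total gave a site share of 3.97% in FA-CLIP. Without AT3G41768, the locus with most events, the mock event share was 93.2%, and with each sequence counted once it was 92.5%. Without AT3G41768 the class shares of events were, in the mock, 41.5% for ribosomal RNA, 18.7% for tRNA, 25.3% for miRNA, 2.67% for snRNA, 4.60% for other non-coding RNA and 0.159% for pseudogenes, and in FA-CLIP 0.323% for pseudogenes, 1.41% for protein-coding genes and 1.57% for introns. Requiring 50% overlap gave 48.0% and 53.0% between FA-CLIP replicates and 64.9% and 64.3% between mock replicates; stronger sites gave 66.7% and 78.3%, and 84.6% and 81.8%. Of reproducible FA-CLIP sites above the median, 86.4% overlapped a mock site, and leaving out each library gave 60.9% to 73.2%; without an FA-CLIP library all sites of the other were used.

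Sums higher and lower in FA-CLIP numbered 0 and 94 with DESeq2, 2 and 53 with total events and no TMM (which moved the median of all sums from −0.07 to 0.08), 3 and 54 over merged regions, 128 and 243 with sites in at least 2 libraries, 0 and 19 scaled to these sites alone, and 0 to 13 and 50 to 213 with each library left out. snoRNA genes lower numbered 62 with sites in at least 2 libraries, 12 scaled to these sites alone and 30 to 56 with a library left out, with 0 to 1 higher. The replicate block, which assumes a pairing the numbers do not show (correlation 0.050), gave 1 higher and 91 lower of the 395. Of all 901 sums it called 257 higher and 117 lower. With no TMM, 264 of all 901 sums were higher and 75 lower. DESeq2 called 245 higher and 122 lower of the 883 sums to which it gave an adjusted p. Of all 1526 merged regions, 239 were higher and 98 lower. No named locus with a call turned its direction under these alternatives, merged regions aside, where loci were not followed. Of the 19 named loci with a call, 9 lost it scaled to these sites alone, 7 without mock replicate 1, 7 without mock replicate 2, 4 with no TMM, 2 with sites in at least 2 libraries and 1 with DESeq2.

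Extended by 25 nt, sites held URUAY at 23.9% in FA-CLIP and 20.8% in the mock, UGUAA at 9.23% and 6.89%, DRACH at 71.3% and 69.7%, GGAU at 25.3% and 26.3%, and UUUUU at 26.4% and 25%. With 2 libraries per group, and FA-CLIP replicates that differ by class, the precision of every fold change is limited.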

Other observations

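Some small RNA genes lie in messenger RNA labels and were left out by the label rule. Sites with a UTR or CDS label on a tRNA, miRNA, snRNA or snoRNA gene of the same strand numbered 50 and 45 in FA-CLIP and 43 and 56 in the mock, with 8073 and 2406 events against 8191 and 8669. Most of these events were at AT5G45720, labelled 3′ UTR, where the tRNA-Glu gene AT5G45715 lies: 6435 and 1690 events in FA-CLIP and 6283 and 6237 in the mock. The tRNA-Met gene AT1G11010 under the 5′ UTR label of AT1G11020 held 369 and 239 events in FA-CLIP and 166 and 151 in the mock. These events are not scaled, and the FA-CLIP libraries listed more events in total (901178 and 830355 against 489805 and 653262).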
